A study of Homo sapiens with 3 samples.

Results

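The outermost 8 Mb of the short arm of chromosome 4, called the 4p end here, is a gene-dense stretch at the tip of a chromosome that is otherwise poor in genes. Its members are the chromatin immunoprecipitation sequencing (ChIP-seq) peaks of Spindlin1 and of C11orf84 whose summit lies between 0 and 8 Mb of chromosome 4 in the human genome build hg19. There were 1304 Spindlin1 peaks and 1776 C11orf84 peaks in it, 3080 of the 331107 peaks of both lists. The rest of chromosome 4 held 2467 Spindlin1 and 2895 C11orf84 peaks. All cells were U2OS, a human osteosarcoma line, without treatment and fixed in 1% formaldehyde for 10 min. The study made 1 Spindlin1 library, 1 C11orf84 library and 1 Input library without antibody, and asked where in the genome each protein lies. The Input library's data were not analysed here, and whether the background in the peak lists came from it is not given. With 1 library per antibody no difference below could be tested against replicates. The 95% intervals cover counting error only. They treat peaks as independent although close neighbours are not, and so tend to be too narrow.

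Spindlin1 is a chromatin protein whose Tudor-like domains bind methylated tails of histone H3, above all the trimethylated lysine found at active promoters. C11orf84 is a protein that binds Spindlin1. Telomere-near ends of human chromosomes are often rich in genes, in G and C bases and in CpG islands, the stretches dense in C followed by G that surround many gene starts.

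The 2 genes that serve as landmarks of the 4p end are FGFR3, near 1.8 Mb, and HTT, near 3.1 Mb. FGFR3 encodes a fibroblast growth factor receptor that restrains the growth of long bones. HTT encodes huntingtin, the protein altered in Huntington disease. In the RefSeq annotation of GRCh38.p14, used for names and order only, 64 of the 770 protein-coding genes of chromosome 4 lie from the short arm tip through HTT (8.31%), and 43 of them on the tip side of FGFR3. The first named ones from the tip are the zinc finger genes ZNF595, ZNF718, ZNF732, ZNF141 and ZNF721. Between FGFR3 and HTT are 19 genes. Among them are LETM1, a mitochondrial inner membrane protein, NSD2, a histone H3 lysine methyltransferase, NELFA, a subunit of the negative elongation factor that holds RNA polymerase near promoters, and ADD1, a protein of the membrane skeleton.

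The promoters of the landmark genes are shown because they are the fixed points of the stretch and let its base composition be seen. Each runs from 250 bases before to 50 bases after the gene start (RefSeq, GRCh38.p14, chromosome 4, plus strand, 5′ to 3′), with every C followed by G in capitals.
FGFR3: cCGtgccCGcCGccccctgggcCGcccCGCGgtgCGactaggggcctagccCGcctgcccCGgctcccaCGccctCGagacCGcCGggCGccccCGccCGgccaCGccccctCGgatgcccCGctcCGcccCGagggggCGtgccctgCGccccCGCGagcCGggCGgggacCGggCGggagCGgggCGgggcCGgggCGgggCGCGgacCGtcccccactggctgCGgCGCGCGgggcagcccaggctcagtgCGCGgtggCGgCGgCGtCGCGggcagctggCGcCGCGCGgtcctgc
HTT: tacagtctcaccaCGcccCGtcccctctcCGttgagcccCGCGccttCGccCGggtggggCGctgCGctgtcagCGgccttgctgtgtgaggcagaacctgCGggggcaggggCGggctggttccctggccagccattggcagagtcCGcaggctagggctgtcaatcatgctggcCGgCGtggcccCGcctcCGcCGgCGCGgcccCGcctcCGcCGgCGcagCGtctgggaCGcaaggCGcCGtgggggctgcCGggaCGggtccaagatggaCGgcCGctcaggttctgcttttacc
The FGFR3 promoter holds 51 CG pairs in 300 bases and is 86.3% G or C, and the HTT promoter holds 32 and is 73.0% G or C. The pair reads the same on both strands. At least 1 such pair is present in 95.8% of 27305 human promoters of this length, the median is 14, and as many as in FGFR3 and in HTT are found in 1.03% and 18.6% of them. The median from the tip through HTT was 36 pairs (50 promoters, interquartile range 18.5 to 43), against 22 for the genes of chromosome 4 past HTT (607 promoters, 6 to 30). Among the genes between FGFR3 and HTT it was 40 pairs (18 promoters). Peak positions are in hg19, so no peak was set against these sequences.

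Beside the rest of chromosome 4, peaks of both proteins were crowded into the 4p end. It held 34.6% of the Spindlin1 peaks of chromosome 4 (95% interval 33.1 to 36.1) and 38.0% of the C11orf84 peaks (36.6 to 39.4) in 4.19% of the length up to the last peak. The density of Spindlin1 was 163 peaks per Mb in the 4p end and 13.5 in the rest of the chromosome, a ratio of 12.1 (11.3 to 12.9). For C11orf84 it was 222 peaks per Mb in the 4p end and 15.8 in the rest, a ratio of 14.0 (13.2 to 14.9). Peaks covered 347 kb (4.34% of bases) of the 4p end for Spindlin1 and 535 kb (6.69%) for C11orf84, against 0.357% and 0.466% of the rest. The spacing of neighbouring peaks was close to that of the whole lists. The median distance to the nearest summit of the same list was 942 bp for Spindlin1 in the 4p end. It was 2714 bp in the rest and 946 bp in the whole list. For C11orf84 these distances were 774.5, 1849 and 895 bp.

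**Figure D1:**
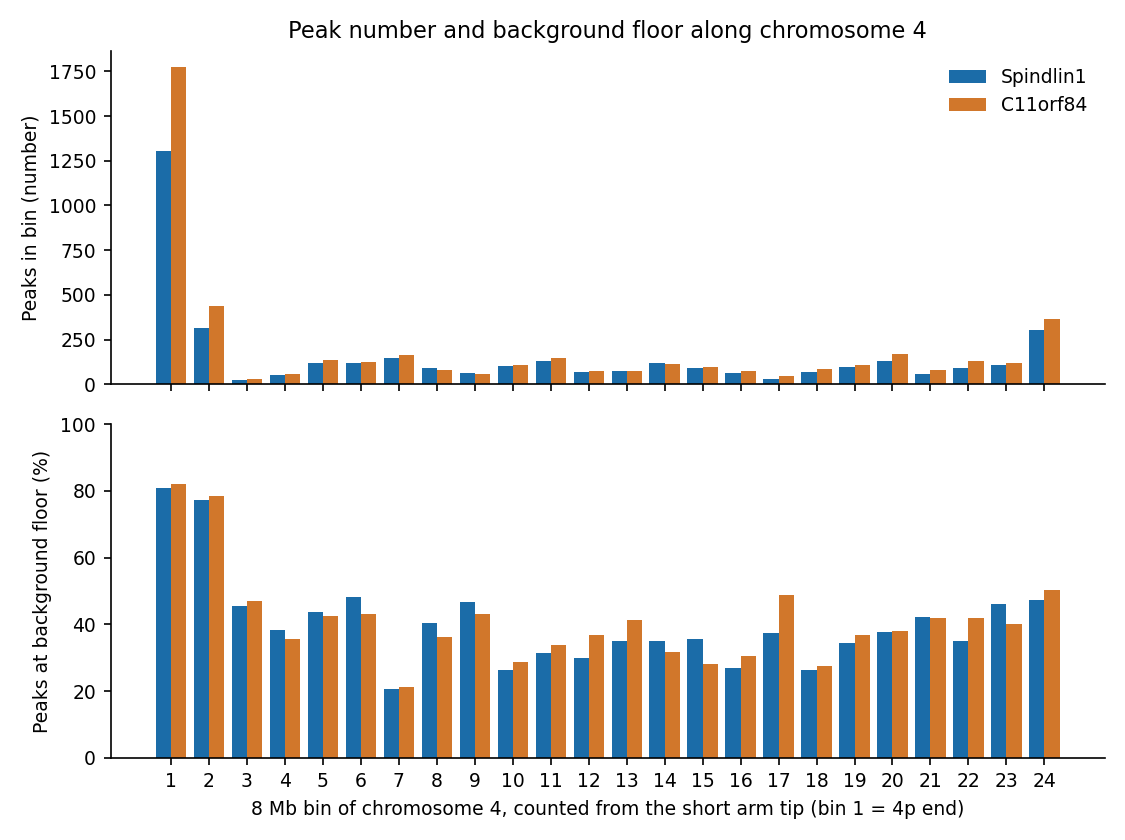
Number of peaks (upper panel) and percentage of peaks whose background stood at the lowest value of their list (lower panel) in 24 bins of 8 Mb along chromosome 4, counted from the short arm tip, for Spindlin1 (blue) and C11orf84 (orange). Bin 1 is the 4p end, with 1304 and 1776 peaks, and the next fullest, bin 2, has 317 and 439.

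Cut into bins of 8 Mb, chromosome 4 had no other stretch like it in number. The other 23 bins held between 22 and 317 Spindlin1 peaks (median 94) and between 32 and 439 C11orf84 peaks (median 109), so the 4p end exceeded the fullest of them by 4.11 and 4.05 times. The crowding does not stop at the 8 Mb line. Between 8 and 9 Mb there were 285 Spindlin1 and 391 C11orf84 peaks, and between 9 and 10 Mb there were 1 and 8. The last Spindlin1 peak inside the line (chr4:7994258-7994498) and the first outside it (chr4:8002686-8002896) both had a fold of 4.62. For C11orf84 the last inside (chr4:7997492-7997856) had a fold of 6.87 and the first outside (chr4:8002166-8002404) 3.71.

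The peaks of the 4p end were shallow. The fold is the authors' own value for each peak, the height of its summit over a local background, and the number of fragments behind it was recovered from the deposited fold and p-value. Median summit depth was 10 fragments in the 4p end for Spindlin1 (interquartile range 9 to 11), against 11 in the rest of chromosome 4 (9 to 13). For C11orf84 it was 10 in the 4p end (9 to 12) and 11 in the rest (10 to 14). At least 15 fragments were reached by 53 Spindlin1 peaks of the 4p end (4.06%) and 455 of the rest (18.4%), and by 96 C11orf84 peaks (5.41%) and 659 of the rest (22.8%). In the whole lists it was 21.0% and 26.2%. The deepest summit had 21 fragments for Spindlin1 and 26 for C11orf84 in the 4p end, against 108 and 95 in the rest.

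Few peaks there had a high −log10 q. A value of at least 10 was found for 33 Spindlin1 peaks (2.53%, 1.75 to 3.54) of the 4p end, against 191 (7.74%, 6.72 to 8.87) of the rest of chromosome 4 and 11.8% of the whole list. For C11orf84 it was 73 peaks (4.11%, 3.24 to 5.14) in the 4p end, against 291 (10.1%, 8.98 to 11.2) in the rest and 15.7% of the whole list. None of these intervals overlap between the 4p end and the rest. Density therefore depended on strength. Among peaks of −log10 q of at least 10 alone, the 4p end exceeded the rest by 3.95 times (2.64 to 5.74) for Spindlin1 and 5.74 times (4.38 to 7.44) for C11orf84.

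Median folds differed little. They were 5.64 for Spindlin1 in both the 4p end and the rest of chromosome 4, and 5.40 in the 4p end and 5.49 in the rest for C11orf84. Folds at the lowest background move in steps of 1 fragment, and 5.64 is the step of 10 fragments for Spindlin1. The highest fold in the 4p end was 10.3 for Spindlin1, rank 1408 in its list, and 11.8 for C11orf84, rank 438, and in the rest of chromosome 4 it was 12.8 and 12.9. Peaks were slightly wider than in the rest, with medians of 221.5 bp (215 to 230) against 211 bp (207 to 215) for Spindlin1 and 246.5 bp (240 to 255) against 226 bp (222 to 230) for C11orf84. In the whole lists the medians were 229 bp for Spindlin1 and 248 bp for C11orf84, so the 4p end was wider only beside the rest of chromosome 4. No peak of the 4p end reached 2 kb.

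Most peaks of the 4p end were called against the lowest background their list allows, called the floor. It corresponded to 0.949 fragments (Spindlin1) and 1.04 fragments (C11orf84). Of the Spindlin1 peaks, 1056 (81.0%, 78.7 to 83.1) stood at the floor in the 4p end, against 1049 (42.5%, 40.6 to 44.5) in the rest of chromosome 4 and 48.2% of the whole list. For C11orf84 these were 1459 (82.2%, 80.3 to 83.9) in the 4p end, against 1277 (44.1%, 42.3 to 45.9) in the rest and 49.3% of the whole list. Backgrounds that reached 2 times the floor, called raised, were found at 21 Spindlin1 peaks (1.61%) and 22 C11orf84 peaks (1.24%) of the 4p end, against 289 (11.7%) and 317 (10.9%) of the rest. In the whole lists it was 9.07% and 9.19%. The neighbouring bin from 8 to 16 Mb had 77.3% and 78.4% of its peaks at the floor, and the 22 bins beyond it lay between 20.5% and 48.3% for Spindlin1 and between 21.1% and 50.3% for C11orf84. Below the floor, the local background cannot be read, and the control behind it is not given. Whether DNA copy number or base composition set the background there was not tested.

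The highest background of the 4p end was at the same place in both lists. At chr4:1857692-1858224 the Spindlin1 peak stood on 4.57 times the floor with a fold of 3.38 at 17 fragments. The C11orf84 peak at chr4:1857999-1858256 stood on 3.82 times the floor with a fold of 2.62 at 12 fragments.

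Within the 4p end, crowded zones alternated with sparse stretches. In windows of 1 Mb counted from the tip, Spindlin1 had 127, 325, 172, 287, 34, 28, 110 and 221 peaks and C11orf84 had 185, 435, 233, 342, 56, 62, 185 and 278. The window from 1 to 2 Mb, which holds FGFR3, was the fullest in both lists, with 24.9% of the Spindlin1 and 24.5% of the C11orf84 peaks. The 2 Mb from 4 to 6 Mb held 4.75% and 6.64%. Over 80 windows of 100 kb the numbers of both lists correlated with a Pearson r of 0.962 and a Spearman rho of 0.956. The windows are neighbours on the same chromosome, so this is a description with no p-value. The 10 fullest of these windows contained 35.5% of the Spindlin1 and 32.3% of the C11orf84 peaks of the 4p end.

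**Figure D2:**
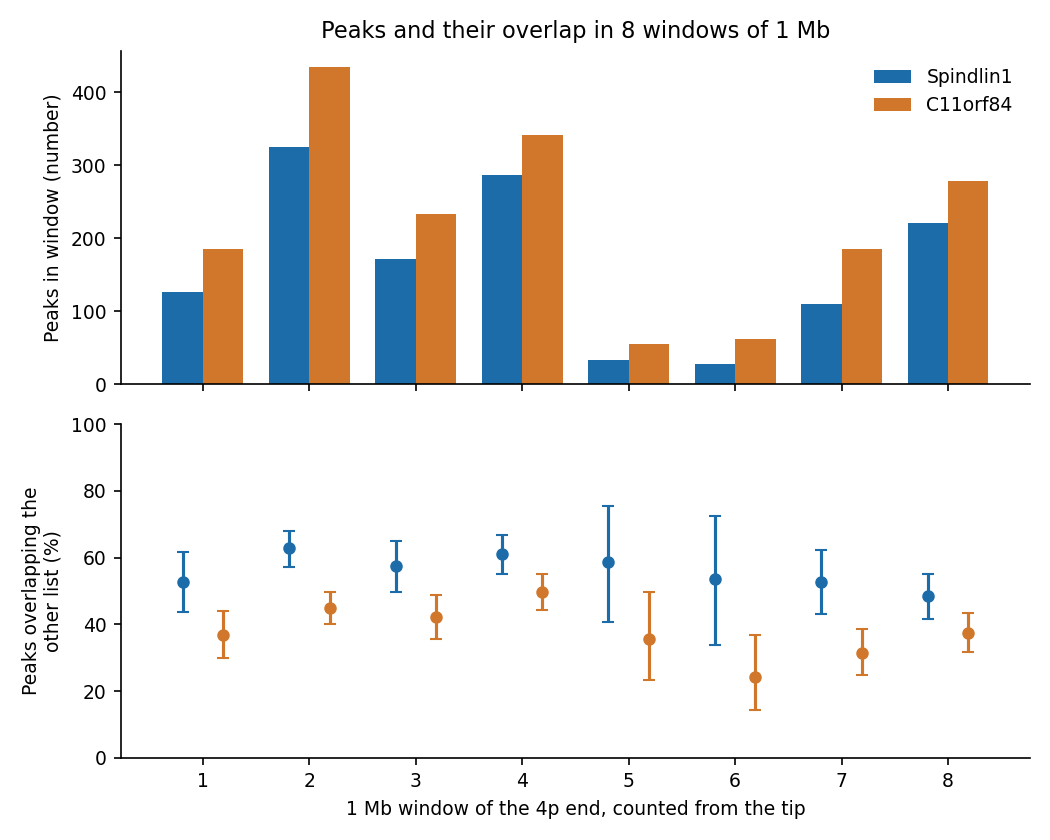
Number of peaks (upper panel, bars) and percentage of them that overlap a peak of the other list (lower panel, points with exact 95% binomial intervals) in the 8 windows of 1 Mb of the 4p end, counted from the tip, for Spindlin1 (blue) and C11orf84 (orange). Numbers are highest in windows 2 and 4, lowest in windows 5 and 6, and the C11orf84 percentage is lowest in window 6, at 24.2%.

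Within 100 kb of their rounded positions, peaks were crowded at FGFR3 and few at HTT. Within 100 kb of 1.8 Mb there were 79 Spindlin1 and 112 C11orf84 peaks (395 and 560 per Mb). Within 100 kb of 3.1 Mb there were 12 and 9 (60 and 45 per Mb). The adjoining window from 3.2 to 3.3 Mb held 33 and 48, so the low count at HTT depends on where the window is placed. The high count at FGFR3 does so as well. Most of its peaks lay from 1.7 to 1.8 Mb (56 and 76), and 1.8 to 1.9 Mb held only 23 and 36. Near FGFR3, 54 of the 79 Spindlin1 peaks (68.4%, 56.9 to 78.4) and 55 of the 112 C11orf84 peaks (49.1%, 39.5 to 58.7) overlapped the other list. Near HTT it was 4 of 12 (33.3%, 9.92 to 65.1) and 4 of 9 (44.4%, 13.7 to 78.8), on few peaks. Over the 4p end 57.1% and 41.0% overlapped the other list, and over the whole lists 69.7% and 57.6%. The gene positions are rounded to 0.1 Mb, so these counts describe the neighbourhoods and not the gene bodies.

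The leading peaks near FGFR3 differed between the proteins. For Spindlin1 it was chr4:1756833-1757256, with a fold of 8.21 at 15 fragments, where C11orf84 had 6.38 at 12 fragments. For C11orf84 it was chr4:1714354-1714982, with a fold of 9.38 at 19 fragments, where the Spindlin1 peak had 4.95 at 12 fragments. The Spindlin1 peak at that second place stood on 1.71 times the floor, and the C11orf84 peak on 1.09 times. Near HTT, the leading Spindlin1 peak (chr4:3028353-3028524, fold 6.72 at 13 fragments) lay 3765 bp from the nearest C11orf84 peak. The leading C11orf84 peak there (chr4:3043413-3043786, fold 6.10 at 12 fragments) overlapped a Spindlin1 peak of fold 4.19.

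Peaks of high −log10 q were gathered in 200 kb past HTT. From 3.5 to 3.7 Mb lay 15 of the 33 Spindlin1 peaks with a −log10 q of at least 10 (45.5%) and 26 of the 73 C11orf84 peaks (35.6%), although this stretch had only 89 and 101 peaks in all. The crowded stretch from 1.5 to 1.8 Mb, just before FGFR3, had more peaks (157 and 206) but only 4 and 6 of that strength. The 100 kb windows from 3.5 and from 3.6 Mb had 8 and 7 such Spindlin1 peaks and 14 and 12 such C11orf84 peaks. No other window had more than 2 and 4. In this stretch 61.8% of the Spindlin1 and 62.4% of the C11orf84 peaks stood at the floor, and median depth was 12 and 11 fragments. The stretch was picked out after its values were seen. Beside its 15 of 89 and 26 of 101, such peaks made up 11.8% and 15.7% of the whole lists. From 3.4 to 3.8 Mb they made up 8.38% and 12.5%, and in the 4p end outside that 1.53% and 2.90%.

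**Figure D3:**
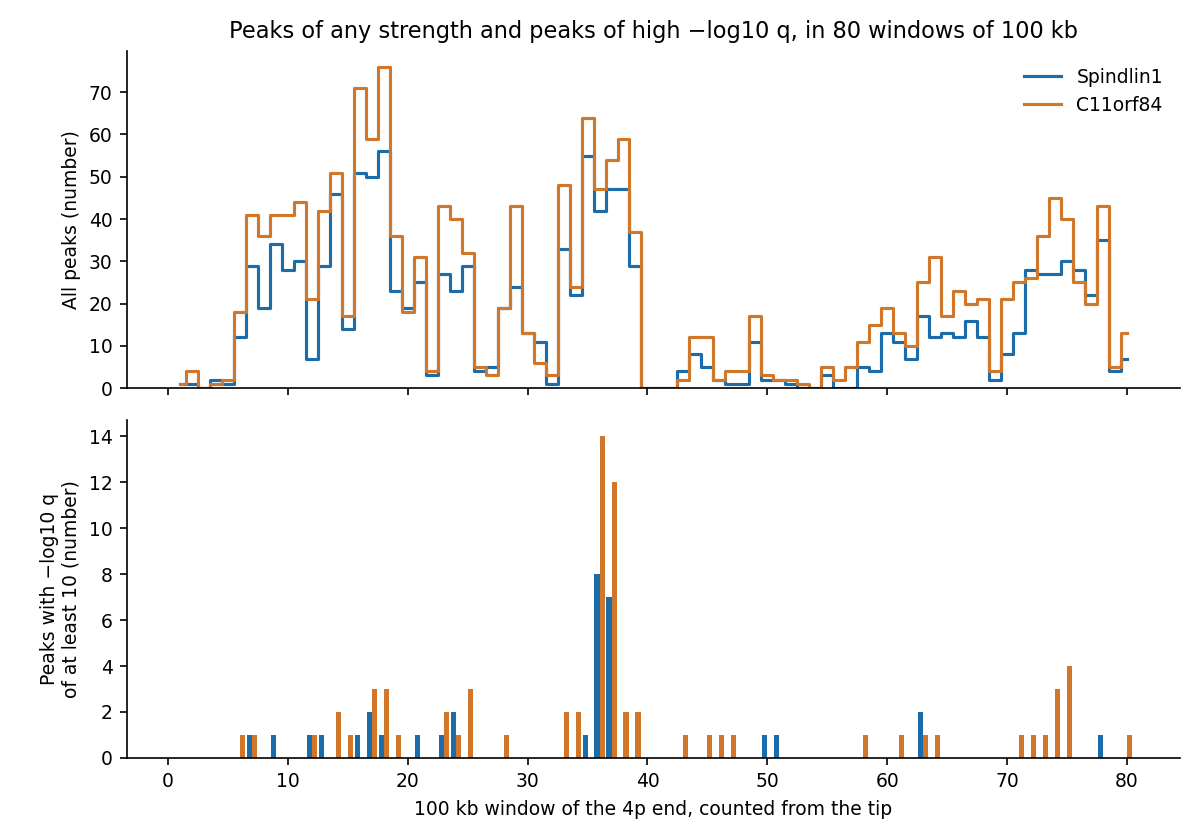
Number of all peaks (upper panel, lines) and of peaks with a −log10 q of at least 10 (lower panel, bars) in 80 windows of 100 kb along the 4p end, counted from the tip, for Spindlin1 (blue) and C11orf84 (orange). Windows 36 and 37 hold 8 and 7 of the 33 Spindlin1 peaks and 14 and 12 of the 73 C11orf84 peaks of that strength, while the highest total numbers, 56 and 76, are in window 18.

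Of the 10 peaks of highest fold, 8 for Spindlin1 and 7 for C11orf84 lay between 3.4 and 3.8 Mb. Spindlin1 had a fold of 10.3 at 19 fragments at 3 places. At chr4:3608589-3608810 the C11orf84 peak had a fold of 9.82 at 19 fragments, with summits 3 bp apart. At chr4:3635296-3636021 the C11orf84 fold was 9.82 as well, with summits 241 bp apart. The third, chr4:3533217-3533445, overlapped no C11orf84 peak. The nearest one, with a fold of 5.40 at 10 fragments, lay 131 bp past its end, so the intervals sat side by side. Just before the first of these places, chr4:3607046-3607572 had a Spindlin1 fold of 10.1 at 20 fragments, and C11orf84 reached 10.3 at 21 fragments with its summit 8 bp away.

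The highest C11orf84 fold lay elsewhere, in the sparse part of the stretch. At chr4:4642387-4642716 it was 11.8 at 23 fragments over the floor. The Spindlin1 peak in the same place had a fold of 4.62 at 8 fragments, also over the floor, with summits 11 bp apart. A similar gap was seen at chr4:1355912-1356259, where C11orf84 had a fold of 10.3 at 20 fragments and Spindlin1 6.16 at 11 fragments, and at chr4:2403340-2403948, with 9.82 at 19 fragments against 4.62 at 8. The opposite was seen at chr4:2392660-2392976, where Spindlin1 had a fold of 9.75 at 18 fragments and C11orf84 5.89 at 11. Folds of the 2 lists are each relative to their own background, and with 1 library each none of these gaps could be tested. All 10 leading C11orf84 peaks and 9 of the 10 leading Spindlin1 peaks overlapped the other list. Of all peaks of at least 15 fragments, 63.5% of C11orf84 and 83.0% of Spindlin1 did so in the 4p end. In the whole lists it was 77.8% and 86.3%. The leading peaks had at least 19 (C11orf84) and 17 (Spindlin1) fragments, so depth is not equal in this comparison, and 10 peaks are few.

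Long stretches had no peak of either protein. The longest in both lists together ran 354 kb between the summits at 3875994 and 4229659. The next ran 206 kb, from 125059 to 331230 near the tip. In the outermost 0.5 Mb there were 5 Spindlin1 and 8 C11orf84 peaks, against 122 and 177 in the next 0.5 Mb. The outermost peak of both lists was at the same place (chr4:53247-53810 for Spindlin1, fold 6.10 at 16 fragments, and chr4:53246-53906 for C11orf84, fold 5.82 at 18 fragments). A stretch without peaks has no call at this depth, which does not measure absence of the proteins.

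Overlap between the proteins was lower in the 4p end than over the whole lists. Peaks that touched a peak of the other list by 1 bp or more are called shared. Of the Spindlin1 peaks, 745 (57.1%, 54.4 to 59.8) were shared in the 4p end, against 1386 (56.2%, 54.2 to 58.2) in the rest of chromosome 4 and 69.7% of the whole list. Of the C11orf84 peaks, 728 (41.0%, 38.7 to 43.3) were shared in the 4p end, against 1365 (47.2%, 45.3 to 49.0) in the rest and 57.6% of the whole list. The Spindlin1 share exceeded that of the rest by 0.95 percentage points (−2.42 to 4.31), a difference that counting error covers. The C11orf84 share was below that of the rest by −6.16 points (−9.10 to −3.20). With overlap of at least 50% of both intervals the Spindlin1 share turned lower too, at 32.4% in the 4p end against 39.5% in the rest. Among peaks at the floor the C11orf84 shares were 39.8% in the 4p end and 38.9% in the rest, so its lower share was not seen there. The C11orf84 difference was −2.97 points (−5.99 to 0.06) without peaks on a raised background, −3.11 (−6.43 to 0.24) for the outer 5 Mb and −8.14 (−21.0 to 3.51) at a −log10 q of at least 10, and each of these intervals reaches 0.

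At equal summit depth over the floor, the Spindlin1 share of the 4p end was above that of the rest of the chromosome in 8 of 9 groups of depth and below that of the whole list in 7 of 9. At 9 fragments 50.9% (44.2 to 57.5) of the Spindlin1 peaks of the 4p end were shared, against 36.8% (30.4 to 43.5) of those in the rest and 58.7% of the whole list. At 12 fragments these were 55.4% (44.7 to 65.8), 55.4% (45.7 to 64.8) and 74.2%. Over all depths, with the others weighted to the depths of the 4p end, the shares were 56.5% in the 4p end, 45.3% in the rest and 63.3% in the whole list. For C11orf84 they were 39.8%, 36.4% and 47.0%. At 12 fragments 39.2% (31.1 to 47.7) of the C11orf84 peaks of the 4p end were shared, against 35.0% (27.1 to 43.5) in the rest and 57.0% of the whole list. At 9 fragments the share was 40.7% (35.1 to 46.5) in the 4p end and 40.6% in the whole list. The C11orf84 share of the whole list lay above the interval of the 4p end in every group of 11 or more fragments, and inside it in every group of 10 or fewer. These shares also depend on how densely the other list covers a stretch, which was not held equal.

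**Figure D4:**
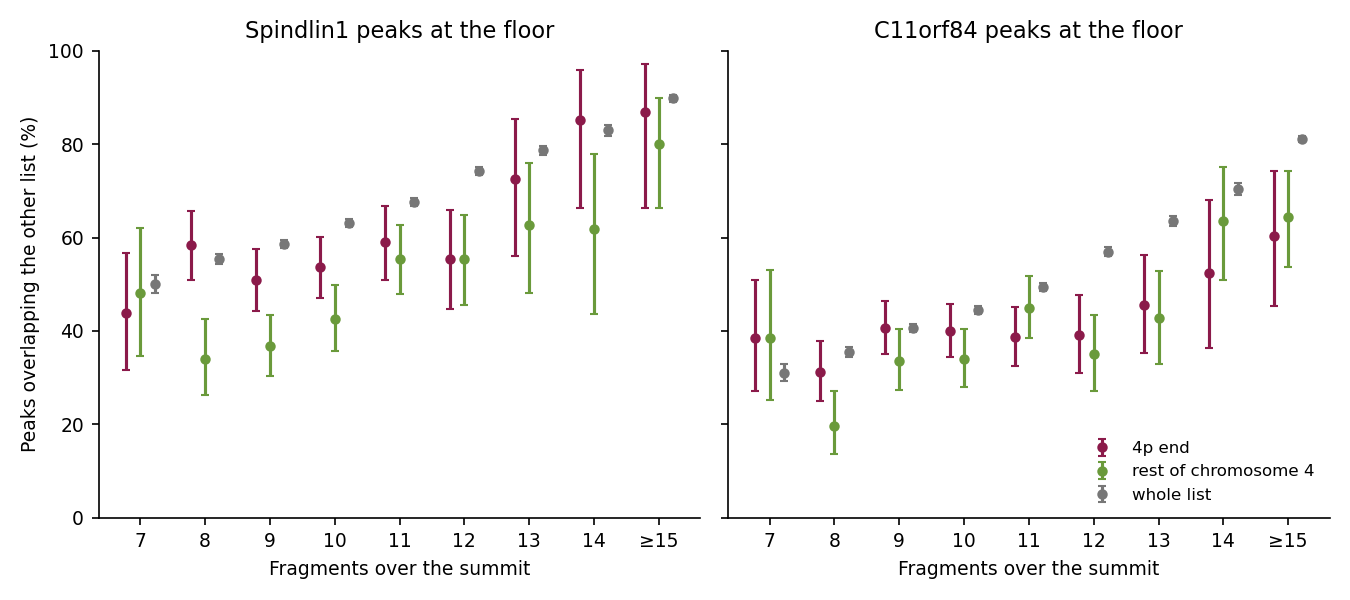
Percentage of peaks at the background floor that overlap the other list, by the number of fragments over the summit, for Spindlin1 (left) and C11orf84 (right). Points are the 4p end (dark red), the rest of chromosome 4 (green) and the whole list (grey), with exact 95% binomial intervals. At 12 fragments the 4p end lies below the whole list in both panels, at 55.4% against 74.2% and at 39.2% against 57.0%.

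Among C11orf84 peaks of at least 15 fragments, whatever their background, 61 of 96 (63.5%, 53.1 to 73.1) were shared in the 4p end, against 75.0% (71.5 to 78.2) in the rest of chromosome 4 and 77.8% in the whole list. At the floor alone these shares were 60.4% (45.3 to 74.2) in the 4p end, 64.4% (53.7 to 74.3) in the rest and 81.1% in the whole list, so the 4p end and the rest could not be told apart there. Of the Spindlin1 peaks of that depth, 44 of 53 (83.0%, 70.2 to 91.9) were shared in the 4p end, against 85.3% in the rest and 86.3% in the whole list. Over shared peaks of any depth, summits were farther from the nearest summit of the other list in the 4p end. The median was 85 bp for Spindlin1 and 82.5 bp for C11orf84 there. It was 54 and 52 bp in the rest of chromosome 4 and 58 and 54 bp in the whole lists. Summit depth, which was lower in the 4p end, was not held equal for these distances.

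Peaks left unshared in the 4p end were mostly close to a peak of the other protein. Of the 559 unshared Spindlin1 peaks, 525 (93.9%) had a C11orf84 peak within 5 kb, and of the 1048 unshared C11orf84 peaks, 907 (86.5%) had a Spindlin1 peak within 5 kb. In the rest of chromosome 4 these were 44.9% and 47.3%, and in the whole lists 72.4% and 74.3%. The median distance from an unshared peak to the other list was 565 bp for Spindlin1 and 852 bp for C11orf84 in the 4p end, against 8012 and 6435 bp in the rest and 1178 and 1252 bp in the whole lists. Only 34 Spindlin1 peaks of the 4p end (2.61%) had no C11orf84 peak within 5 kb, against 596 (24.2%) in the rest and 8.36% of the whole list. For C11orf84 it was 141 (7.94%) in the 4p end, against 806 (27.8%) in the rest and 10.9% of the whole list. These distances were not corrected for the density of peaks, which was higher in the 4p end.

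These remote peaks had a median fold of 5.13 for Spindlin1 and 5.40 for C11orf84 in the 4p end, against 5.64 and 5.40 for all its peaks. Their median depth was 9 fragments for Spindlin1 and 11 for C11orf84, against 10 for all peaks of either list there. The highest Spindlin1 fold among the remote peaks was 6.67 at 12 fragments, reached by 4 peaks. One of these, chr4:2503076-2503257, lay 11247 bp from the nearest C11orf84 peak, and the other 3 lay from 7600599 to 7629812. Among the C11orf84 peaks of this kind, at chr4:2291032-2291280 the fold was 8.35 at 16 fragments, 6432 bp from Spindlin1, and at chr4:6244446-6244724 it was 7.85 at 15 fragments, 9176 bp away.

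There were 0.734 Spindlin1 peaks to 1 C11orf84 peak in the 4p end, 0.852 in the rest of chromosome 4 as a whole and 0.864 over the whole lists. Of the other 23 bins of 8 Mb, 5 had a lower ratio than the 4p end, and they ranged from 0.681 to 1.13. Among the windows of 1 Mb the ratio was lowest from 5 to 6 Mb, with 28 Spindlin1 and 62 C11orf84 peaks (0.452), and highest from 3 to 4 Mb, with 287 and 342 (0.839). In the window from 5 to 6 Mb, 15 of the 62 C11orf84 peaks were shared (24.2%, 14.2 to 36.7), against 170 of 342 (49.7%, 44.3 to 55.1) from 3 to 4 Mb. Between 5.0 and 5.7 Mb there were 6 Spindlin1 and 17 C11orf84 peaks, and a single pair of them overlapped. Total read numbers are unknown, so these ratios are not corrected for depth.

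The widest C11orf84 peak, chr4:3485704-3487157, was 1454 bp wide with a fold of 6.38 at 12 fragments and overlapped 2 Spindlin1 peaks, of which the stronger had a fold of 7.18. The next, chr4:1625017-1626263, was 1247 bp wide and overlapped 3. The widest Spindlin1 peak, chr4:2010782-2011822, was 1041 bp wide with a fold of 6.95 at 21 fragments on a background of 2.28 times the floor, and overlapped 2 C11orf84 peaks. In all, 43 Spindlin1 peaks of the 4p end overlapped 2 C11orf84 peaks (3.30%, 2.40 to 4.42), against 2.80% in the rest of chromosome 4 and 4.19% of the whole list. For C11orf84, 57 peaks overlapped 2 or more Spindlin1 peaks (3.21%, 2.44 to 4.14), against 3.04% in the rest and 5.56% of the whole list.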

How the data were processed

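Peak lists of 1 Spindlin1 and 1 C11orf84 ChIP-seq library were used. The submitters' processing notes name Bowtie 1.2.2 and the build hg19. Peak caller, threshold and control: not given in the sources used here. The deposited columns give, per peak, a fold (ratio of the summit to a local background), a −log10 p and a −log10 q, and a score that restates the −log10 q, all made by the authors. Total read numbers are unknown. Each fold was read as (k + 1)/(λ + 1) for k fragments over a background λ and each p-value as the Poisson chance of exceeding k; a whole k met both within 0.001 for 100% of peaks. The floor is the lowest λ of a list (tolerance 0.1%). Positions are printed counting from 1. Whole-list values use chromosomes 1 to 22 and X. Shares carry exact Clopper-Pearson and medians exact binomial 95% intervals; the interval of a difference adds the 2 intervals in squares. The single regions are, per list, the 10 peaks of highest fold, the 5 widest and the 5 of highest fold more than 5 kb from the other list, of which the leading ones are printed, and the 2 landmark neighbourhoods were added after the data were seen. Members and lists were chosen with earlier results of these data known. The recovery and the overlap count were tested on simulated data. Software was pandas 2.3.3, SciPy 1.17.1, NumPy 2.4.6 and matplotlib 3.10.9 under Python 3.11.15. No hg19 annotation or genome was used here, so peaks are not tied to genes or exons.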

Additional observations from a re-analysis of the deposited data

How the results depend on the processing

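Density was higher in the 4p end than in the rest of chromosome 4 under all alternatives run. The Spindlin1 ratio, 12.1, became 3.95 among peaks with a −log10 q of at least 10, 10.6 with peak-free stretches of 1 Mb or more left out of the length, 14.0 for the outer 5 Mb, and 13.5 without peaks on a raised background. The C11orf84 ratio, 14.0, became 5.74, 13.0, 15.8 and 15.6 under the same changes. Chosen after seeing the data, peaks at the floor alone gave 23.0 and 26.1, and the outer 9 Mb against the chromosome past it gave 14.7 and 17.5. The Spindlin1 difference in shared peaks, 0.95 percentage points, became −7.08 with at least 50% of both intervals, −1.06 with summits at most 200 bp apart, 4.63 at a −log10 q of at least 10, 4.47 without raised background, 8.87 at the floor and −0.66 without the stretch from 3.4 to 3.8 Mb (the last 2 chosen after seeing the data), so it has no settled direction. The C11orf84 difference, −6.16 points, became −9.86 with 50% of both intervals, −3.11 for the outer 5 Mb, −2.97 without raised background and 0.83 at the floor; the last 3 have intervals that include 0. For the floor the cause was not tested. Median folds became 8.21 and 8.35 at a −log10 q of at least 10, by its construction, and widths moved by 0.5 bp without raised background. In all, 20 values moved beyond their interval, 4 changed direction and 10 did neither. No paired analysis was possible because each antibody has 1 library. The shares rest on summits with a median of 10 fragments, and how sequencing depth affects them was not tested.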

Other observations

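After the 4p end and the neighbouring bin from 8 to 16 Mb (317 Spindlin1 and 439 C11orf84 peaks), the long arm end was the fullest bin of chromosome 4 in number of peaks. In the last bin, from 184 Mb to the last peak at 190.9 Mb, there were 302 Spindlin1 and 368 C11orf84 peaks. That bin is shorter than the others and held 43.5 and 53.0 peaks per Mb. The bin from 8 to 16 Mb held 39.6 and 54.9 per Mb, and the 4p end 163 and 222. Per Mb the last bin was thus above the bin from 8 to 16 Mb for Spindlin1 and below it for C11orf84. The last bin had 29 Spindlin1 and 51 C11orf84 peaks with a −log10 q of at least 10, against 33 and 73 in the 4p end. Its shares at the floor were 47.4% and 50.3%, and 58.9% and 47.6% of its peaks were shared.

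The bin around the centromere, from 48 to 56 Mb, was the opposite of the 4p end in background. Only 20.5% of its 146 Spindlin1 and 21.1% of its 166 C11orf84 peaks stood at the floor, 30.8% and 29.5% had a raised background, and 68.5% and 61.4% were shared, the highest of the 24 bins in both lists.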
